A study of Homo sapiens with 12 samples.

Results

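The transcript levels of 39 genes of the hypoxia response and of glycolysis were described in LM2 cells, which come from MDA-MB-231, a human breast cancer line, by selection for growth in the lung. The genes were chosen by name, and all 39 were found among the 24556 gene symbols of the table, each with 1 row. Of these, 16 encode glycolytic enzymes and 23 are other targets or regulators of the hypoxia-inducible factors (HIF). RNA of 12 libraries was sequenced, 3 from each of 4 groups: scramble shRNA and EZH2 shRNA, both delivered by transduction, and scramble siRNA and ZRANB1 siRNA, both delivered by transfection. An shRNA or siRNA lowers a transcript of matching sequence, and a scramble sequence has no intended target. All groups were the same line in DMEM with serum and antibiotics. The sequences of the hairpins and siRNAs, the number of hairpins per target, the time after delivery, the oxygen level and the cell density were not stated in the labels.

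Levels were in FPKM, the fragments of a transcript scaled to its length and to the mapped fragments of its library. Tests used log2(FPKM + 1) with limma on 11929 genes, those whose mean level reached 1 FPKM, and a gene was called at a Benjamini-Hochberg adjusted p below 0.05 over these genes. All 39 genes passed this filter, and "rose" or "fell" is used for called genes. The 3 values that each group has for a gene stood in text order in the table, so a value could not be tied to its library. The depth behind the values is unknown, since the table holds no counts. Nothing in the labels ties the 3 libraries of a group to separate cultures, so p-values refer to the spread among these samples only, and that spread may be technical. In bulk RNA, a change in the share of cells that express a gene and a change in RNA per cell cannot be told apart.

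HIF is a pair of an oxygen-regulated alpha subunit, such as HIF1A or EPAS1, and a constant beta subunit, ARNT. With oxygen present, prolyl hydroxylases of the EGLN family mark the alpha subunit, the VHL ubiquitin ligase binds it, and it is degraded. HIF1A is therefore controlled mainly at the level of protein. When oxygen is low, HIF gathers in the nucleus and induces glucose transporters, glycolytic enzymes, angiogenic factors, regulators of pH and enzymes of the collagen matrix. Many tumour cells also run glycolysis and export lactate with oxygen present, which is known as the Warburg effect.

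HIF binds hypoxia response elements, whose core is ACGTG or GCGTG.
RefSeq promoter windows (GRCh38.p14, from 250 bases before to 50 after a start site) were found for 35 of the 39 genes, with 67 windows in all; VEGFA, NDRG1, BNIP3L and SLC2A3 were the other 4.
Searched on both strands, ACGTG stood in 28 of the 67 windows (41.8%), against 21.4% of the 35116 windows of all genes. The latter belong to 27305 genes, whether or not they were tested here. Some genes had several windows, in part overlapping.
GCGTG stood in 29 windows (43.3%, against 36.5%), and at least 1 of both cores in 46 (68.7%, against 48.4%).
The palindrome CACGTG, which reads as ACGTG on either strand and is also the E-box of other factors, was part of 8 windows (11.9%, against 7.26%).
Cores also stood in windows of HK2, PFKM, ALDOC and CA12, which fell in the libraries labelled ZRANB1 siRNA, and of GAPDH, which was not called. The windows of EGLN3 and P4HA2, which rose there, held neither core. A match of such short letters is a description of the sequence and shows no binding.
Stretches of 250 bases before the start site are printed for CA9, PGK1, PFKFB3 and P4HA1. These genes were picked for having both an ACGTG core and the largest rises in the libraries labelled ZRANB1 siRNA, so the stretches do not link core and rise. They are given 5′ to 3′ on the strand of the gene, with capitals at the cores.
CA9: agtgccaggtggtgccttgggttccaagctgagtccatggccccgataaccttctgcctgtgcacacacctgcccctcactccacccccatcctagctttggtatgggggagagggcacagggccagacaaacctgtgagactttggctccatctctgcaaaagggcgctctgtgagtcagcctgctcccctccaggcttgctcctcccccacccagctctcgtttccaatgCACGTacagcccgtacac
PGK1: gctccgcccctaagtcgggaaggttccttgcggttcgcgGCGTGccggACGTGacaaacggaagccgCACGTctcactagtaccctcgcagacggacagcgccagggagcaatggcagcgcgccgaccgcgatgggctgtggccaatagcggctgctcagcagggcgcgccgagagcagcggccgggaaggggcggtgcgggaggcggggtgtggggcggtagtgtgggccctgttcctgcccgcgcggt
PFKFB3: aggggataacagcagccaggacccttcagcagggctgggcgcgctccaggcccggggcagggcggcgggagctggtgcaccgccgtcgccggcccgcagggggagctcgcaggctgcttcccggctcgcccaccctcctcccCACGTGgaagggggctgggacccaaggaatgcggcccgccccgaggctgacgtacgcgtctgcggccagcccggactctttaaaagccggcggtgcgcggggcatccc
P4HA1: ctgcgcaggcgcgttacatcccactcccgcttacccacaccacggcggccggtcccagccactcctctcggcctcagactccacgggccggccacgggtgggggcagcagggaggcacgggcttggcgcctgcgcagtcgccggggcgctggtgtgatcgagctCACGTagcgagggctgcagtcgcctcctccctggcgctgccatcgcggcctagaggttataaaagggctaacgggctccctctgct
The stretch of CA9 is chr9:35673678-35673927 on the plus strand, and its 1 core, which is ACGTG on the opposite strand and so is printed as CACGT, begins 18 bases before the start site.
That of PGK1 is chrX:78103998-78104247 on the plus strand and holds GCGTG 211 bases before the start and ACGTG cores that begin 202 and 183 bases before it, the latter on the opposite strand.
The stretch of PFKFB3, from the second of its 2 windows, is chr10:6202682-6202931 on the plus strand and holds 1 CACGTG that begins 108 bases before the start.
P4HA1 is on the minus strand, at chr10:73096867-73097116, with a core on the opposite strand that begins 86 bases before the start.

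Most of the 39 genes were at their lowest in the scramble siRNA group. For 30 of them (76.9%) this group had the lowest of the 4 means, against 36.3% of all tested genes, and for the 23 HIF targets and regulators outside glycolysis it had the lowest mean for 21 (91.3%). The 16 glycolytic enzymes had 9 such genes. Summed over the 23 genes, the mean level was 2009.9 FPKM in the scramble shRNA group, 2034 FPKM for the EZH2 shRNA, 928 FPKM with the scramble siRNA and 1458 FPKM in the libraries labelled ZRANB1 siRNA. The glycolytic enzymes summed to 12149, 10930.3, 9271 and 10146 FPKM in the same order, led in each group by GAPDH, the enzyme that oxidizes glyceraldehyde phosphate.

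**Figure D1:**
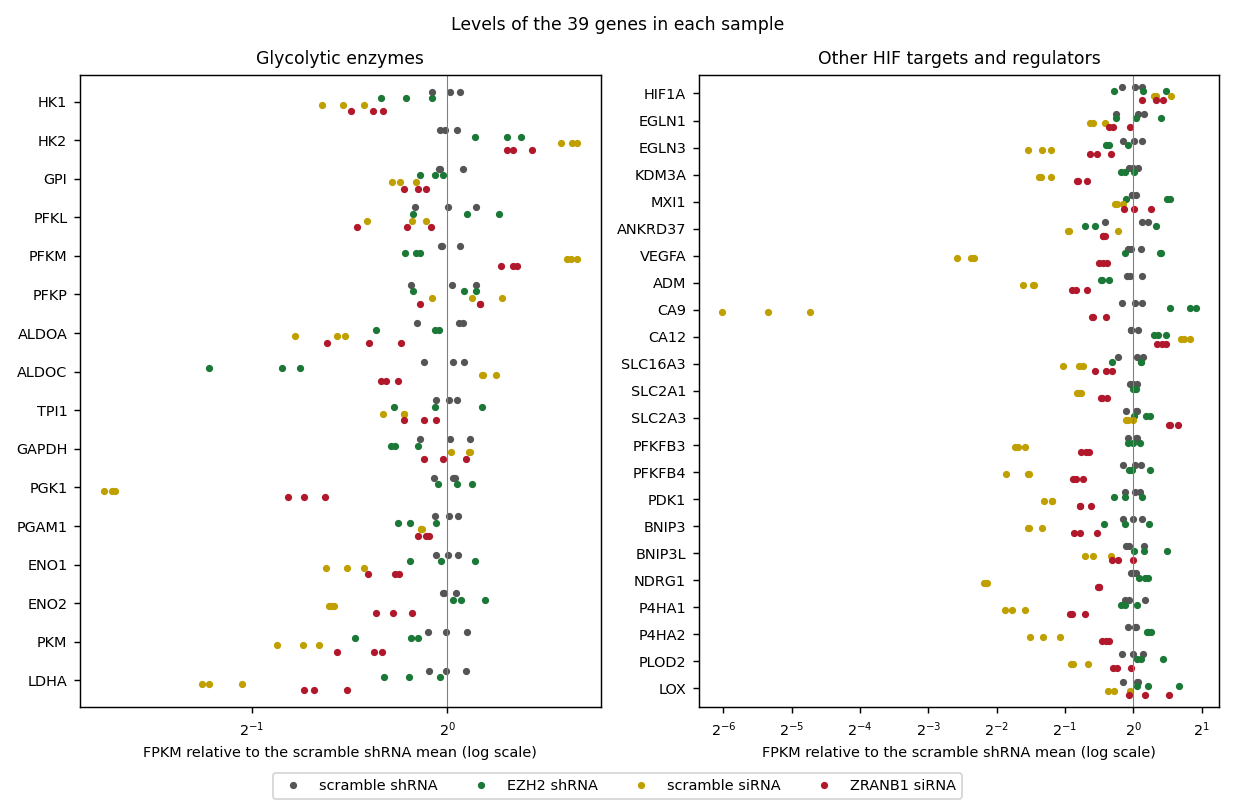
FPKM of the 39 genes in each sample, divided by the mean of the scramble shRNA group, on log axes of different range in the panels for glycolytic enzymes (left) and other HIF targets and regulators (right). Each point is 1 sample, with 3 per group. The scramble siRNA points lie left of the line for most genes and farthest left for CA9, and the ZRANB1 siRNA points lie between both scramble groups by mean for 33 of the 39.

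The target genes were checked first. EZH2, the histone methyltransferase of Polycomb repressive complex 2, fell with its own shRNA to 16.5 ± 0.681 FPKM (SD, n = 3), against a control level of 35.4 ± 1.07 FPKM (adjusted p = 1.34e-05, limma). ZRANB1, a deubiquitinase, was at 11.4 ± 0.795 FPKM with the scramble siRNA and 10 ± 1.31 FPKM with its own siRNA, and was not called (adjusted p = 0.349). A lower target was therefore not shown, and directions in that group are those of libraries that carry the label ZRANB1 siRNA. These libraries also had less EZH2, at 30.4 ± 2.08 against 48.6 ± 2.1 FPKM (adjusted p = 5.43e-05). Of markers of the line, all 6 expected to be high were present, with VIM the highest and a sum of 3557 to 4012 FPKM per group, and 5 of the 6 were called in the ZRANB1 comparison. Among these, CD44 was at 264, 261, 118 and 206 FPKM and SPARC at 116, 94.6, 47.6 and 78.7 FPKM, in the order scramble shRNA, EZH2 shRNA, scramble siRNA and libraries labelled ZRANB1 siRNA. Of 6 markers expected to be low or absent, PGR was listed at 0 in each group, while ERBB2, GATA3 and EPCAM were above 1 FPKM in each, led by ERBB2 at 11.9 to 19.9 FPKM. Leukocyte markers summed to 38.3 to 42.5 FPKM, of which CD68 made up 34.4 to 41.7 FPKM, with CD3E listed at 0 in 3 of the 4 groups. The leukocyte marker CD14 was at 3.9, 2.87, 0.243 and 0.867 FPKM in the order scramble shRNA, EZH2 shRNA, scramble siRNA and libraries labelled ZRANB1 siRNA. Endothelial markers summed to 0.345 to 1.63 FPKM. The fibroblast list summed to 25.1, 19.8, 8.83 and 17.7 FPKM in the same order. COL1A1 made up 24.6, 19.3, 8.14 and 17 FPKM of these sums, the other 3 genes stayed below 1 FPKM, and DCN was listed at 0 with the scramble siRNA. In CD14, COL1A1, CD44 and SPARC the scramble siRNA was the lowest group, as in most of the 39 genes. The means of VIM, at 2836, 2605, 2573 and 2675 FPKM, and of PECAM1, at 1.57, 1.09, 0.316 and 0.678 FPKM, were lowest there too. ERBB2, at 11.9, 12.4, 19.9 and 15.4 FPKM, and CD68, at 34.4, 35.6, 40.2 and 41.7 FPKM in that order, were lowest with the scramble shRNA. Against the scramble shRNA, 2 of the 6 markers expected to be high were higher with the scramble siRNA and 3 were lower. Of 3 tested markers expected to be low, 2 were higher and 1 was lower. The part of these cell markers in the differences was not tested.

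The comparison of the EZH2 shRNA with its scramble shRNA asked which of these genes change when EZH2 is lower. The surface carbonic anhydrases CA9 and CA12 rose, and the vasodilator peptide gene ADM and the aldolase gene ALDOC fell. The other 35 genes did not pass the test. These 4 of 39 (10.3%) compare with 6.41% of all tested genes, of which 3.39% were higher and 3.03% lower. The median log2 fold change of the 39 was 0.004, and that of all genes was -0.014. Values of both groups did not overlap for 10 of the 39 genes, 5 higher and 5 lower, against 22.1% of all genes.

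CA9, a membrane enzyme that turns carbon dioxide into bicarbonate and protons outside the cell, stood at 20.6, 23.5 and 25.4 FPKM in the control and at 33.7, 41.4 and 43.7 FPKM with the EZH2 shRNA. Each EZH2 shRNA sample was above each control sample, and the mean was 1.71 times the control mean. On the log2 scale it rose by 0.74, with a standard error (SE) of 0.131 and an adjusted p of 0.0073 (limma). CA12, a second extracellular carbonic anhydrase, was at 8.99, 9.05 and 9.67 FPKM in the control and at 11.4, 11.8 and 12.8 FPKM with the EZH2 shRNA. Its samples did not overlap either, and the rise was smaller, a log2 fold change of 0.34 (SE 0.0688, adjusted p = 0.0143).

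ADM, which encodes adrenomedullin, was at 248, 254 and 289 FPKM in the control and at 190.3, 192 and 206 FPKM with the EZH2 shRNA. The groups did not overlap, and the log2 fold change was -0.42 (SE 0.082, adjusted p = 0.0118). ALDOC, the aldolase form best known from brain, was at 13.6, 15.1 and 15.7 FPKM in the control and at 6.36, 8.24 and 8.78 FPKM with the EZH2 shRNA. All 3 samples with the EZH2 shRNA were well below the control, at 52.6% of its mean, with a log2 fold change of -0.85 (SE 0.0989, adjusted p = 0.000583). ALDOC carried 1.47% of the summed aldolase level of ALDOA and ALDOC in the control and 0.864% with the EZH2 shRNA. ALDOA itself was not called, with a 95% interval of its log2 fold change from -0.41 to 0.11. The calls of CA9, CA12 and ADM were each lost in at least 1 alternative analysis, with the highest adjusted p at 0.055, 0.118 and 0.0639. With only the 6 values of both groups in the fit, 1 gene rose and 1 fell.

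HIF1A, the best known alpha subunit, had values of 56.5, 64.7 and 69 FPKM in the scramble shRNA group, 52.3, 69.8 and 88.5 FPKM with the EZH2 shRNA, 78.2, 79.5 and 93.2 FPKM with the scramble siRNA and 69.2, 79.7 and 85.9 FPKM in the libraries labelled ZRANB1 siRNA. The EZH2 shRNA samples spanned the whole range of their control and beyond, and both siRNA groups overlapped. It was called in neither comparison, with log2 fold changes of 0.12 (95% interval -0.24 to 0.48, adjusted p = 0.746) and -0.096 (-0.46 to 0.26, adjusted p = 0.758). The scramble siRNA group, with its low levels of most HIF targets, had the highest HIF1A mean of the 4 groups, at 83.6 ± 8.32 FPKM against 63.4 ± 6.36 FPKM with the scramble shRNA. This difference was not called either (adjusted p = 0.0641), though it was in at least 1 alternative, with an adjusted p as low as 0.0137.

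Among uncalled genes of the EZH2 comparison, HK2, the inducible hexokinase, came closest, at 11.5 ± 0.366 and 13.9 ± 1.11 FPKM with an adjusted p of 0.0559. GAPDH was at 3546 ± 311 and 3013 ± 154 FPKM (adjusted p = 0.0945), without overlap of the samples. Several other genes had narrow intervals around 0. The glucose transporter gene SLC2A1 was at 168 and 170.0 FPKM, with a 95% interval of the log2 fold change from -0.10 to 0.14. PFKFB3, whose product makes the allosteric activator of phosphofructokinase, was at 53.9 and 54.1 FPKM, with an interval from -0.15 to 0.16. For PGK1, the phosphoglycerate kinase that makes the first ATP of glycolysis, the interval ran from -0.11 to 0.19 around means of 480.1 and 495 FPKM. VEGFA, which encodes the main angiogenic growth factor, had a wider interval, from -0.055 to 0.51. Of its values with the EZH2 shRNA, 164, 234 and 235 FPKM, 1 lay under and the others above the control values of 168, 173 and 193 FPKM.

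The comparison of the ZRANB1 siRNA with its scramble siRNA asked how these genes respond where ZRANB1 was targeted. Among the 39 genes in the libraries labelled ZRANB1 siRNA, 19 rose, 4 fell (HK2, PFKM, ALDOC and CA12) and 16 did not pass the test. The 23 called genes were 59.0% of the list, against 16.6% of all tested genes, of which 10.1% were higher and 6.5% lower. The median log2 fold change of the list was 0.35, and that of all genes was -0.017. Most of the rises lay outside glycolysis, where 15 of 23 genes rose and 1 fell around a median of 0.54. Of the 16 glycolytic enzymes 4 rose and 3 fell around a median of 0.094. Values of both groups did not overlap for 28 genes, 24 of them higher, against 36.4% of all genes. The scramble siRNA values that these folds rest on were themselves low. By the same test 26 of the 39 genes were below the scramble shRNA, against 25.1% of all tested genes. The counts by role below stand against the 10.1% higher and 6.5% lower of all tested genes in the ZRANB1 comparison.

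**Figure D2:**
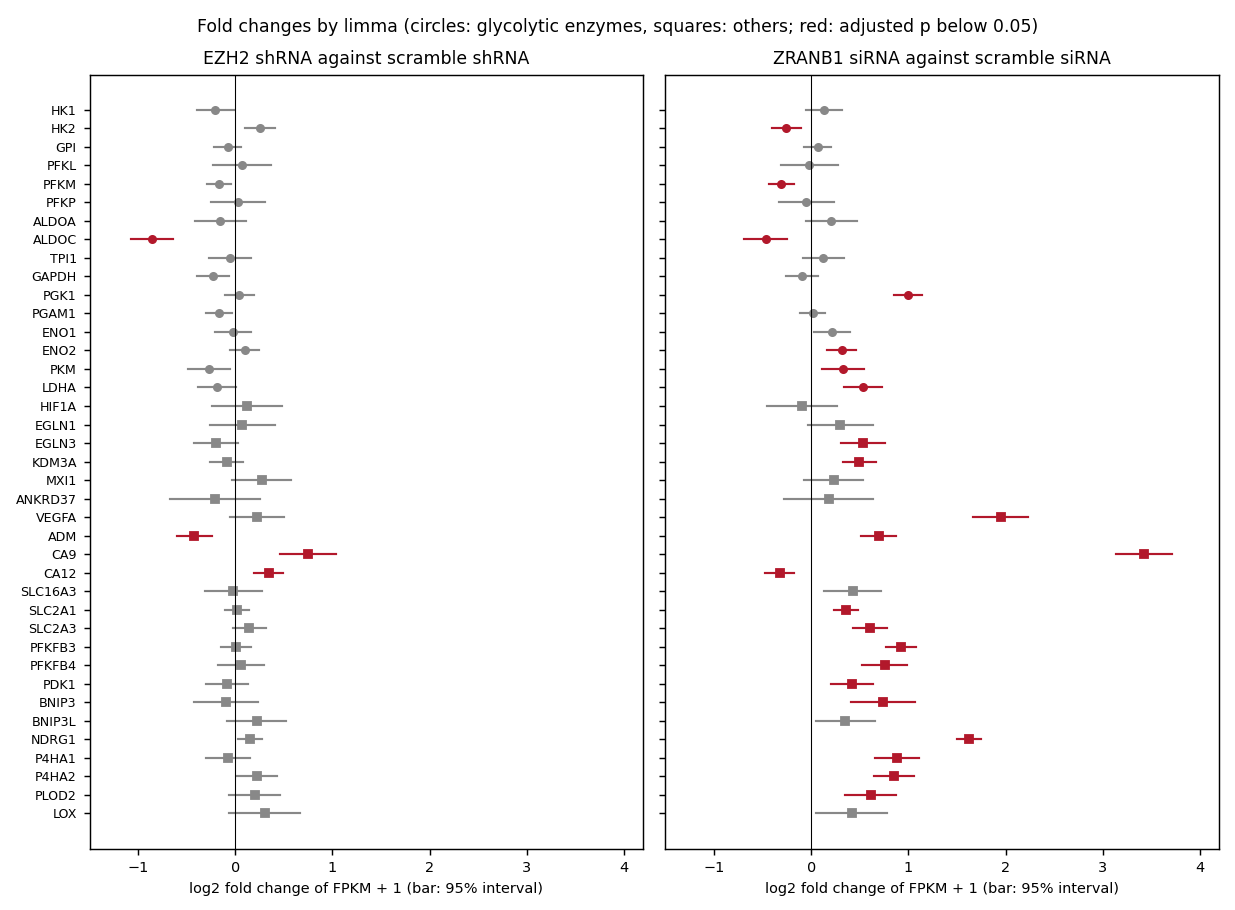
Log2 fold change of FPKM + 1 for the 39 genes with its 95% interval, with the EZH2 shRNA (left) and in the libraries labelled ZRANB1 siRNA (right), each against its own scramble group of 3. Red marks an adjusted p below 0.05, with 4 genes on the left and 23 on the right, and CA9 reaches 3.42 on the right.

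Of the secreted factors and regulators of pH, 3 rose, 1 fell and 1 was not called. CA9 was at 0.359, 0.572 and 0.87 FPKM with the scramble siRNA and at 15.3, 15.4 and 17.5 FPKM in the libraries labelled ZRANB1 siRNA. No scramble siRNA sample reached 1 FPKM, and all 3 of the other group were above 15 FPKM. The means stood 26.8-fold apart, and the log2 fold change, which understates low genes, was 3.42 (SE 0.131, adjusted p = 1.35e-08). Any part of the core printed for CA9, 18 bases before the start site, in this difference was not tested. VEGFA was at 29.9, 34.4 and 35.3 FPKM with the scramble siRNA and at 126, 130.4 and 136 FPKM in the libraries labelled ZRANB1 siRNA. The groups were far apart, 3.94-fold by their means, with a log2 fold change of 1.95 (SE 0.127, adjusted p = 1.18e-06). ADM rose from 86.4, 95.8 and 96.8 FPKM to 142, 147 and 165 FPKM, a log2 fold change of 0.69 (SE 0.082, adjusted p = 0.000141). CA12 fell from 15, 15.5 and 16.4 FPKM to 11.7, 12.3 and 12.9 FPKM, and its log2 fold change was -0.32 (SE 0.0688, adjusted p = 0.00764). SLC16A3, which encodes the lactate exporter MCT4 and was the most abundant of the 23 genes in each group, was at 270.5 ± 27.6 and 363 ± 32.9 FPKM. Its samples did not overlap, yet it missed the threshold (log2 fold change 0.43, adjusted p = 0.0528) and was called in 3 alternative analyses.

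All 5 of the genes placed under glucose entry and flux control rose in the libraries labelled ZRANB1 siRNA, where 10.1% of all tested genes did. PFKFB2, a gene of the PFKFB family outside the 39, fell. With the scramble siRNA, 4 of the 5 were lower than with the scramble shRNA, against 25.1% of all tested genes. PFKFB3 was at 16.2, 16.8 and 17.9 FPKM with the scramble siRNA and at 31.7, 33.2 and 34.4 FPKM in the libraries labelled ZRANB1 siRNA. The groups did not overlap, and the log2 fold change was 0.93 (SE 0.071, adjusted p = 4.24e-06). Its relative PFKFB4 went from 8.65 ± 1.08 to 15.2 ± 0.812 FPKM (adjusted p = 0.00055). The transporter gene SLC2A1 went from 96.5 ± 2.01 to 124 ± 4.27 FPKM (adjusted p = 0.00103). SLC2A3, a transporter of higher glucose affinity, went from 16.1 ± 0.61 to 25 ± 1.31 FPKM (adjusted p = 0.000275). SLC2A3 was the only one of the 39 genes with its highest mean in the libraries labelled ZRANB1 siRNA, above 16.8 FPKM in the scramble shRNA group and 18.7 FPKM with EZH2 shRNA. Its near-identical copy SLC2A14 makes its level uncertain. PDK1, the kinase that inhibits pyruvate dehydrogenase, went from 4.36 ± 0.209 to 6.17 ± 0.41 FPKM (adjusted p = 0.0137), a call lost in 2 alternatives, with an adjusted p of up to 0.057.

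Of the 3 genes of mitophagy and stress, 2 rose. NDRG1, a stress-response gene linked to metastasis, was at 30.7, 31.6 and 31.7 FPKM with the scramble siRNA and at 98.3, 99.1 and 99.2 FPKM in the libraries labelled ZRANB1 siRNA. The samples of each group lay close together and far from the other group. The means differed 3.15-fold, with a log2 fold change of 1.63 (SE 0.0553, adjusted p = 4.88e-09). BNIP3, which marks mitochondria for autophagy, went from 83.6 ± 6.96 to 140.4 ± 16.8 FPKM (adjusted p = 0.00572), and its relative BNIP3L was at 32.3 ± 4.49 and 41.3 ± 4.53 FPKM, not called (adjusted p = 0.113).

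The enzymes of the collagen matrix rose in 3 of 4 cases. P4HA1, a catalytic subunit of collagen prolyl hydroxylase, was at 25, 26.8 and 30.4 FPKM with the scramble siRNA and at 48.3, 49.4 and 56 FPKM in the libraries labelled ZRANB1 siRNA. P4HA2, the alternative subunit, was at 12.8, 14.6 and 17.4 FPKM with the scramble siRNA and 26.6, 27.6 and 28.7 FPKM in the other group. Neither gene had overlapping samples. Their log2 fold changes were alike, 0.88 (SE 0.104, adjusted p = 0.00014) for P4HA1 and 0.85 (SE 0.0935, adjusted p = 8.14e-05) for P4HA2. PLOD2, a lysyl hydroxylase of collagen, went from 52.1 ± 5.08 to 80.3 ± 8.14 FPKM (adjusted p = 0.00482). LOX, which cross-links collagen, was at 13.1 ± 1.58 and 18 ± 3.73 FPKM and was not called (adjusted p = 0.117).

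Of the 6 genes of oxygen sensing and regulation, 2 rose. EGLN3, a prolyl hydroxylase that HIF itself induces, went from 1.22 ± 0.143 to 2.22 ± 0.247 FPKM (log2 fold change 0.54, adjusted p = 0.00434). KDM3A, an oxygen-dependent histone demethylase, went from 8.33 ± 0.564 to 12.1 ± 0.713 FPKM (log2 fold change 0.49, adjusted p = 0.00104). EGLN1, the main prolyl hydroxylase of HIF1A, was at 16.1 ± 1.3 and 20.1 ± 2.3 FPKM without overlap of the samples, and was not called (adjusted p = 0.224). MXI1, an antagonist of MYC, was at 6.35 and 7.67 FPKM, and ANKRD37 at 2.2 and 2.58 FPKM, with adjusted p of 0.301 and 0.627.

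**Figure D3:**
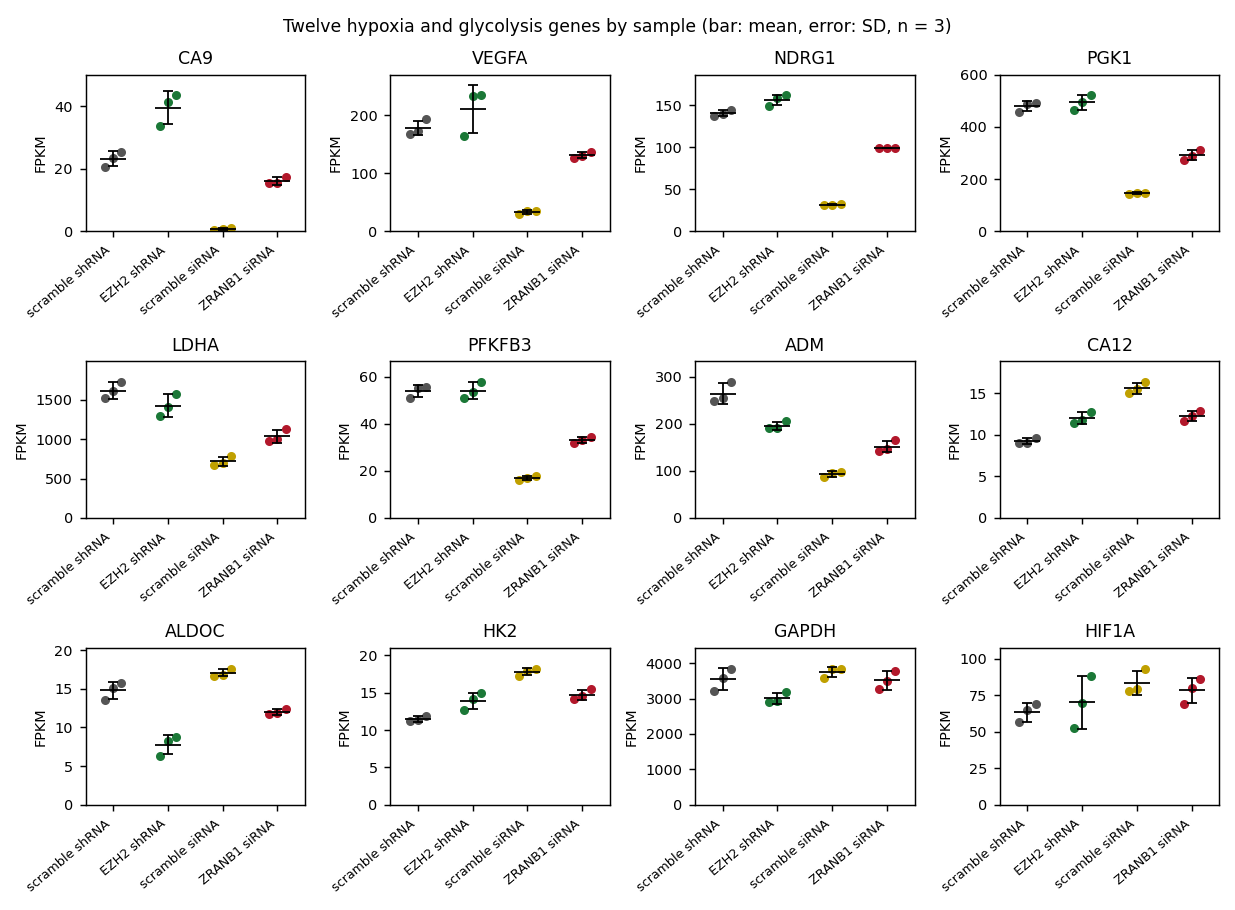
FPKM of 12 of the genes in each of the 12 samples, with the mean (bar) and SD (error bar, n = 3) of each group; each panel has its own linear axis from 0. CA9, VEGFA, NDRG1, PGK1, LDHA, PFKFB3 and ADM are lowest with the scramble siRNA, while CA12, ALDOC and HK2 are highest there, and HIF1A overlaps between each treated group and its own control.

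The glycolytic enzymes moved in both directions in the libraries labelled ZRANB1 siRNA. The rises were at PGK1 and at the end of the pathway, in ENO2, PKM and LDHA. PGK1 was at 142, 146 and 148 FPKM with the scramble siRNA and at 273, 289 and 311 FPKM in the libraries labelled ZRANB1 siRNA. The means stood 2.0-fold apart without overlap of the samples, a log2 fold change of 0.99 (SE 0.0673, adjusted p = 1.59e-06). LDHA, which turns pyruvate into lactate, was at 679, 696 and 782 FPKM with the scramble siRNA and at 973, 1009 and 1133 FPKM in the other group. All 3 samples labelled ZRANB1 siRNA exceeded the control, and the log2 fold change was 0.53 (SE 0.0896, adjusted p = 0.00193). PKM, the pyruvate kinase gene, was at 949, 1042 and 1103 and then 1172, 1339.6 and 1376 FPKM. ENO2, the neuronal form of enolase and 3.75% of summed enolase in the libraries labelled ZRANB1 siRNA, was at 45.4, 45.9 and 46.3 and then 53.8, 57 and 61.1 FPKM. The samples of neither gene overlapped, and their log2 fold changes were 0.33 (adjusted p = 0.0416) and 0.31 (adjusted p = 0.00785). The call of PKM was lost in 7 of 13 alternatives, with an adjusted p of up to 0.147.

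The falls were in minor forms of enzymes of early steps. In the libraries labelled ZRANB1 siRNA, HK2 was 12.7% of summed hexokinase, PFKM 16.2% of phosphofructokinase and ALDOC 1.59% of aldolase. From scramble siRNA to these libraries, the summed means went from 109.8 to 116 FPKM for hexokinase and from 663 to 759 FPKM for aldolase. For phosphofructokinase they went from 259 to 243 FPKM. ALDOC was at 16.7, 16.8 and 17.6 FPKM with the scramble siRNA and at 11.7, 11.9 and 12.4 FPKM in the libraries labelled ZRANB1 siRNA. Its groups did not overlap, and the log2 fold change was -0.47 (SE 0.0989, adjusted p = 0.00722). PFKM, the muscle form of phosphofructokinase, was at 48.3, 49 and 50 FPKM with the scramble siRNA and at 38.2, 39.8 and 40.5 FPKM in the other group. All 3 of its ZRANB1 siRNA values were below the control, with a log2 fold change of -0.31 (SE 0.058, adjusted p = 0.00387). HK2 was at 17.8 ± 0.50 and 14.7 ± 0.65 FPKM (log2 fold change -0.26, adjusted p = 0.0281), a call lost in 5 of 13 alternatives, with an adjusted p of up to 0.0967. Of other abundant enzymes, GAPDH, ENO1 and ALDOA were not called: GAPDH was at 3749 ± 141 and 3515 ± 263 FPKM, ENO1 at 1268 ± 85.1 and 1472 ± 85.3 FPKM (adjusted p = 0.11, without overlap), and ALDOA at 646 ± 60.7 and 747 ± 97.3 FPKM. The others not called were HK1, GPI, PFKL, PFKP, TPI1 and PGAM1, with log2 fold changes between -0.049 for PFKP and 0.14 for HK1. RefSeq names pseudogenes for 16 of the 39 genes, 65 for GAPDH, 46 for BNIP3, 13 for PGAM1 and 6 for LDHA among them, so reads of these genes may have been shared and their levels are uncertain.

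Enzyme forms that catalyse the same step kept different balances. Of the summed LDHA and LDHB level, LDHA was 74.0% with the scramble shRNA and 73.8% with the EZH2 shRNA, but 42.3% with the scramble siRNA and 58.1% in the libraries labelled ZRANB1 siRNA. LDHB, the form of tissues that take up lactate, fell from 980.2 ± 56.3 to 749.6 ± 50.6 FPKM in the last pair of groups (log2 fold change -0.39, adjusted p = 0.00392), while LDHA rose. CA9 was 71.5% and 76.8% of the sum of CA9 and CA12 in the shRNA groups, 3.70% with the scramble siRNA and 56.6% in the libraries labelled ZRANB1 siRNA. HK2 was the minor hexokinase in each group, with 7.98%, 10.8%, 16.2% and 12.7% of the sum of HK1 and HK2, in the order used for the sums. PFKP, the platelet form, was the major phosphofructokinase, between 54.7% and 56.9% in all 4 groups, and PFKM ranged from 11.5% to 19.0%. These shares come from group means, since values cannot be tied to libraries, and carry no error.

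**Figure D4:**
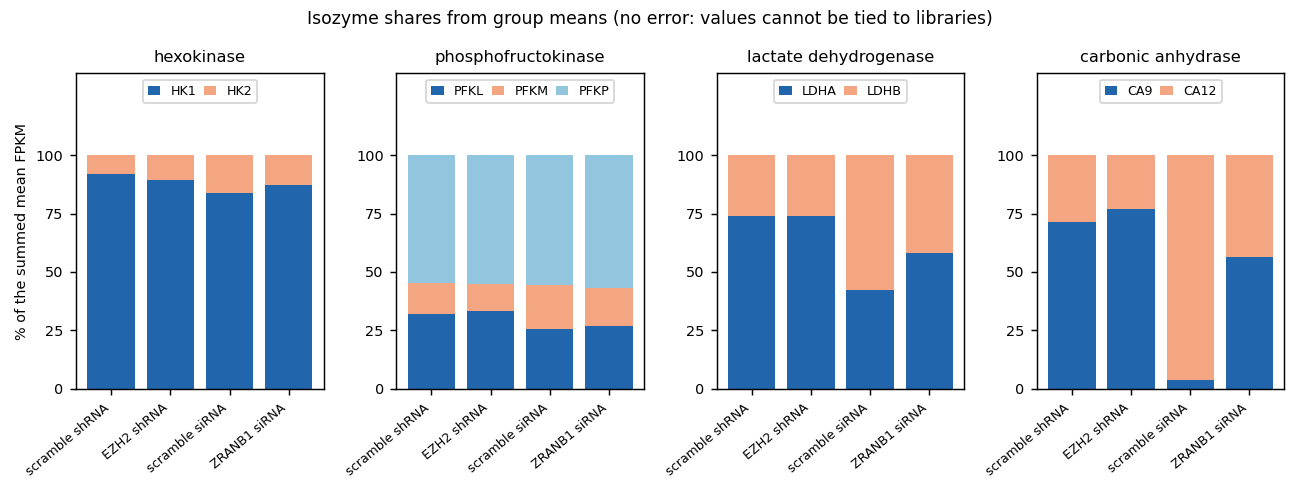
Share of each enzyme form in the summed mean FPKM of its family, in percent, for hexokinase, phosphofructokinase, lactate dehydrogenase and carbonic anhydrase in the 4 groups. LDHA is 74.0% with the scramble shRNA and 42.3% with the scramble siRNA, CA9 is 71.5% and 3.70%, and PFKP stays between 54.7% and 56.9%.

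More of the 39 genes differed between the 2 scramble controls than between either treated group and its own control. With the scramble siRNA, 26 of the 39 genes were lower than with the scramble shRNA, 3 were higher (HK2, PFKM and CA12) and 10 were not called. These 29 genes were 74.4% of the list, and 50.6% of all tested genes differed in this way, 25.5% higher and 25.1% lower, with medians of -0.58 for the list and 0.011 for all genes. The largest differences were those of CA9, at 23.2 ± 2.44 FPKM in the scramble shRNA group and 0.60 ± 0.257 FPKM in the scramble siRNA group (log2 difference -3.92, adjusted p = 1.31e-09), of VEGFA, at 178 ± 12.8 and 33.2 ± 2.89 FPKM (-2.39, adjusted p = 5.32e-08), and of NDRG1, at 140.3 ± 3.52 and 31.4 ± 0.548 FPKM (-2.13, adjusted p = 2.06e-10). PGK1 was at 480.1 and 145 FPKM, and LDHA at 1619 and 719 FPKM. Delivery by transduction or by transfection and any difference in culture or batch cannot be told apart here.

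The libraries labelled ZRANB1 siRNA had means between both scramble controls for 33 of the 39 genes (84.6%), against 68.1% of all tested genes, and both comparisons share the scramble siRNA samples. The rises thus stopped short of the scramble shRNA level for most genes: relative to it, the mean was 69.2% for CA9, 73.4% for VEGFA, 70.5% for NDRG1, 60.6% for PGK1, 64.1% for LDHA and 61.4% for PFKFB3. An exception was SLC2A3, at 149%. The genes that fell stayed above the scramble shRNA for CA12 (133%), HK2 (128%) and PFKM (125%), and ALDOC went below it (81.2%).

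The effects of both treatments were set against each other in the same fit. Of all tested genes 10.5% differed between them, and of the 39 genes 17 had a higher and 2 a lower log2 fold change in the libraries labelled ZRANB1 siRNA than with the EZH2 shRNA. CA9 rose in both, ALDOC fell in both, CA12 rose with the EZH2 shRNA and fell in the ZRANB1 siRNA libraries, and ADM did the opposite. The difference for ADM was 1.12 (adjusted p = 8.79e-05) and that for CA12 was -0.67 (adjusted p = 0.0011) on the log2 scale, and that for ALDOC, 0.39, was not called (adjusted p = 0.114). Of the 19 genes that rose in the libraries labelled ZRANB1 siRNA, 17 were not called with the EZH2 shRNA. Only 6.41% of all tested genes were called in that comparison, so most genes of any list would be uncalled there.

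Genes around the HIF pathway were listed as well. Of 14 named subunits and regulators of HIF, 12 were tested, and with either treatment EPAS1 rose and 0 fell by limma. The 1 called gene is 8.33% of those tested, against 6.41% of all genes with the EZH2 shRNA and 16.6% in the ZRANB1 comparison. At an unadjusted p below 0.05, 3 were higher and 2 lower with the EZH2 shRNA, and 2 were higher and 0 lower in the ZRANB1 comparison. EPAS1, which encodes the other main alpha subunit, stood at 26, 27.1 and 28.2 FPKM in the scramble shRNA group and 38.3, 42.2 and 43.6 FPKM with EZH2 shRNA. Its samples did not overlap, and the log2 fold change was 0.59 (adjusted p = 0.000583). It rose from 27.9, 27.9 and 29.9 to 34.9, 35.2 and 37 FPKM in the libraries labelled ZRANB1 siRNA, by 0.31 on the log2 scale (adjusted p = 0.00916).

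Of 28 further genes reported as HIF targets, 26 were tested. With the EZH2 shRNA 7 rose and 0 fell by limma (1 lower at an unadjusted p below 0.05), 26.9% of those tested against 6.41% of all genes, around a median log2 fold change of 0.16. They were AK4, ANGPTL4, FUT11, HILPDA, PPFIA4, RORA and STC1. STC1, a secreted glycoprotein, went from 148 ± 11.8 to 219 ± 16.6 FPKM (adjusted p = 0.00524), ANGPTL4, an inhibitor of lipoprotein lipase, from 26.6 ± 2.06 to 44.2 ± 6.36 FPKM (adjusted p = 0.0255), and AK4, a mitochondrial adenylate kinase, from 23.6 ± 3.17 to 38 ± 4.0 FPKM (adjusted p = 0.0106). FUT11 went from 23 ± 0.625 to 33.2 ± 1.95 FPKM (adjusted p = 0.00203) and the lipid droplet gene HILPDA from 8.63 ± 0.525 to 12.4 ± 0.885 FPKM (adjusted p = 0.0084). PPFIA4 and the nuclear receptor gene RORA were low, at 4.83 and 1.87 FPKM in the control and 6.57 and 3.43 FPKM with the EZH2 shRNA. The calls of ANGPTL4 and HILPDA were lost in 5 and 1 of 13 alternatives, and those of PPFIA4 and RORA in 7 and 5 of 12. With 1 value left out 4 to 7 of the list rose.

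In the libraries labelled ZRANB1 siRNA, 15 of these 26 genes rose and 0 fell by limma (0 lower at an unadjusted p below 0.05), 57.7% of those tested against 16.6% of all genes, around a median of 0.41. STC1 was at 9.62, 10.5 and 11.8 FPKM with the scramble siRNA and 97.4, 103 and 112 FPKM in the libraries labelled ZRANB1 siRNA, a log2 fold change of 3.18 (adjusted p = 1.46e-09). ANGPTL4 went from 4.2 ± 1.12 to 22.8 ± 3.38 FPKM (adjusted p = 2.87e-06). As for the 39 genes, the scramble siRNA was the low group, with 20 of the 26 lower there than with the scramble shRNA by limma and 0 higher (0 also at an unadjusted p below 0.05), against 25.1% of all genes lower.

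A further list held genes of pyruvate fate and of flux control. Of 23 tested, 0 were called by limma with the EZH2 shRNA (median -0.030; at an unadjusted p below 0.05, 1 was higher and 3 were lower), and 6 fell and 1, PDP1, rose in the ZRANB1 comparison (median -0.20), which is 30.4% called against 16.6% of all tested genes. With the scramble siRNA, 13 of the 23 were above and 4 below the scramble shRNA, where 25.5% of all tested genes were higher and 25.1% lower. PFKFB2, a relative of PFKFB3 and PFKFB4, fell from 5.95 ± 0.185 to 3.97 ± 0.502 FPKM (adjusted p = 0.00409), opposite in direction to both. GOT1, an enzyme of the malate-aspartate shuttle, went from 41.7 ± 0.80 to 30.4 ± 1.25 FPKM (adjusted p = 0.000275), and PDHB, a subunit of pyruvate dehydrogenase, from 148 ± 7.94 to 112 ± 4.7 FPKM (adjusted p = 0.00299). LDHB was the third of the falls by adjusted p. Of 16 genes of the pentose phosphate pathway and glycogen, 1 (6.25%) was called with the EZH2 shRNA, near the 6.41% of all tested genes. This was PGD, which fell from 75.8 ± 4.88 to 61.3 ± 2.86 FPKM (adjusted p = 0.0375), a call lost in 7 of 13 alternatives. In the libraries labelled ZRANB1 siRNA 3 of the 16 rose and 1 fell, where 16.6% of all genes were called. PYGL, the liver form of glycogen phosphorylase, fell from 89.4 ± 4.21 to 66.5 ± 3.18 FPKM (adjusted p = 0.00114), and PGM1, which links glycogen to glycolysis, rose from 43.6 ± 1.17 to 62.9 ± 1.05 FPKM (adjusted p = 0.00163). GBE1, the glycogen branching enzyme gene, is in both the list of further HIF targets and this one.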

How the data were processed

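The deposited values are FPKM, in 1 table by the authors that has 26006 rows of genes and 12 columns. The submitters' processing notes name the build hg19 and the tools TopHat2 2.1.1 and SAMtools, then Cufflinks 2.2.1 together with Cuffdiff 2.2.1. For options, annotation and strand, the setting is not given in the sources used. FPKM depends on all other genes of a library, and its depth cannot be recovered from these values.

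Where the 3 values of a group differed (15454 to 15850 rows per group), they were always sorted as text. Columns therefore do not follow libraries, which leaves group means, SDs and single-gene tests intact, while no pairing and no depth per library can be had.

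Where several rows had 1 symbol (440 symbols), the one of highest mean was used, and 27 rows with symbols turned into dates were kept apart. Values were tested as log2(FPKM + 1), which understates the change of low genes, for genes whose mean reached 1 FPKM, with limma 3.58.1 in R 4.3.3: 1 mean per group, all 4 groups (8 residual degrees of freedom), an intensity trend and Benjamini-Hochberg adjustment. Steps were tested on simulated data.

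The members and lists were chosen with earlier results of these data known, so lists are given as counts and medians without a test. All 3 values per group are given for HIF1A, the members called with the EZH2 shRNA, and, among those without overlap, the 6 glycolytic and 6 other members with the largest called change in the ZRANB1 comparison. Of each further list, up to 3 called genes by adjusted p in that comparison and those called with the EZH2 shRNA are named, apart from some that are not reported here. Other settings tried were no filter or one at 5 FPKM, a pseudocount of 0.1, only the 6 values compared, no variance trend, 1 scaling factor per group, summed rows, and leaving out 1 value. Promoter windows came from RefSeq (GRCh38.p14), matched by symbol and not by hg19 position.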

Additional observations from a re-analysis of the deposited data

Results flagged for a closer look

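By limma's test of the difference, 19 of the 39 genes differed between the effects of both treatments, against 10.5% of all tested genes. The log2 fold change with the EZH2 shRNA was taken from that in the libraries labelled ZRANB1 siRNA. Among the HIF targets outside glycolysis, this difference was 2.68 for CA9, 1.72 for VEGFA, 1.47 for NDRG1, 1.12 for ADM and -0.67 for CA12. In glucose entry and flux control it was 0.92 for PFKFB3, 0.70 for PFKFB4, 0.50 for PDK1, 0.46 for SLC2A3 and 0.34 for SLC2A1. It was 0.96 for P4HA1, 0.63 for P4HA2, 0.83 for BNIP3, 0.74 for EGLN3 and 0.58 for KDM3A. Among glycolytic enzymes it was 0.95 for PGK1, 0.71 for LDHA, 0.60 for PKM and -0.51 for HK2. The adjusted p ran from 4.8e-07 for NDRG1 to 0.0416 for PDK1. Of these calls, those of PKM, SLC2A3, PDK1 and BNIP3 were lost in 1, 4, 12 and 7 of 18 alternatives. Their adjusted p reached 0.0501, 0.0543, 0.0974 and 0.0672. The ZRANB1 effect rests on the scramble siRNA group. There 26 of the 39 genes were lower than with the scramble shRNA, against 25.1% of all tested genes. Target and delivery differ together between both comparisons and cannot be told apart here.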

How the results depend on the processing

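No paired analysis was possible because a column does not follow 1 library from row to row, so no fit with a replicate block was run. For the same reason 1 value per gene was left out after a random order. With the EZH2 shRNA, 2 of the 39 genes rose and 2 fell. With a pseudocount of 0.1, 1 rose, and with only the 6 values of both groups, 1 rose and 1 fell. With 1 value left out, 1 to 4 rose and 2 fell. ALDOC was called in every alternative, while CA9 was lost at the pseudocount of 0.1, ADM with the 6 values, and CA12 with the 6 values and when 1 value was left out. In the libraries labelled ZRANB1 siRNA, 17 to 20 genes rose and 3 to 4 fell over all alternatives; 20 of the 23 calls held in every one, and HK2, PKM and PDK1 did not. Between both controls, 3 to 4 genes stood higher and 24 to 26 stood lower with the scramble siRNA. Scaling moved each group by at most 0.0097 on the log2 scale.

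Among all genes, the EZH2 shRNA had between 124 and 419 higher and between 98 and 424 lower, with the lowest counts for the 6 values, and 898 to 1253 rose and 451 to 802 fell in the libraries labelled ZRANB1 siRNA. With the filter at 5 FPKM, 260 genes were higher with the EZH2 shRNA and 268 had a lower effect in the ZRANB1 comparison than in that of EZH2. The sign turned only in uncalled genes, when 1 value was left out. With the EZH2 shRNA the log2 fold change then ran from -0.032 to 0.18 for PFKL, from -0.064 to 0.12 for PFKP, from -0.17 to 0.057 for TPI1, from -9.62e-05 to 0.087 for PGK1, from -0.11 to 0.056 for ENO1, from -0.063 to 0.31 for HIF1A, from -0.088 to 0.22 for EGLN1, from -0.13 to 0.12 for SLC16A3, from -0.006 to 0.045 for SLC2A1, from -0.044 to 0.044 for PFKFB3, from -0.033 to 0.11 for PFKFB4, from -0.19 to 0.003 for PDK1, from -0.26 to 0.067 for BNIP3, from -0.14 to 0.013 for P4HA1 and from -0.17 to 0.023 for PGM1. In the libraries labelled ZRANB1 siRNA it ran from -0.10 to 0.086 for PFKL and from -0.14 to 0.050 for PFKP. The unknown depth and the 3 values per group limit precision.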
